A study of Mus musculus with 6 samples.

Results

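The genes described here encode 9 cyclin-dependent kinases and the neuronal activator of one of them, 10 of the 31053 genes listed in each library. They were *Cdk17*, *Cdk16* and *Cdk18*, which form the PCTAIRE group, their relative *Cdk14*, the neuronal kinase *Cdk5* with its activator *Cdk5r1*, and *Cdk7*, *Cdk8*, *Cdk9* and *Cdk12*, whose products act on transcription. *Cdk17* was chosen by its high EPR, the value defined below, in the RPL10A-STAMP libraries, so its values are a description and were given no test. The other genes were taken as its relatives by family and role.

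Cyclin-dependent kinases are protein kinases that need a partner protein, usually a cyclin, to be active. The PCTAIRE kinases are named for a run of amino acids in the helix that faces the partner, and they are expressed in neurons and other cells that no longer divide. Cdk16 and Cdk14 are activated by cyclin Y at the membrane. Cdk5 is activated in neurons by Cdk5r1 rather than by a cyclin, and it phosphorylates proteins of the cytoskeleton and the synapse. Cdk7, Cdk8, Cdk9 and Cdk12 phosphorylate RNA polymerase or its regulators.

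The cells were wild-type cortical neurons of C57BL/6J mouse embryos of day 18, plated at 600000 cells per well and treated with floxuridine, which kills dividing cells, at DIV 3. At DIV 6 they were infected with AAV carrying a Tet-On system whose transactivator was driven by the human synapsin promoter, so that the fusion protein was made in neurons upon addition of Dox. One group of 3 libraries expressed RPL10A-STAMP and the other group of 3 RPL22-STAMP, in which the mouse ribosomal protein Rpl10a or Rpl22 was fused to rAPOBEC1, the rat enzyme that deaminates cytidine in RNA to uridine. Both groups received 1 μg per ml Dox for 48 h and were collected at DIV 14, and neurons infected with other constructs or left uninfected were not analysed here. The study refers to its replicates both as biological and as technical, so p-values here measure only the spread between these samples.

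EPR, edits per read, is the number of C-to-U edits in a gene divided by the reads counted for it. A value is therefore per read and does not report how much RNA a gene made. How many reads lie behind a value is unknown, and a gene at 0 may lack edits or may lack reads. The libraries are bulk RNA, in which fewer cells that translate a gene and less editing per cell cannot be told apart. All 10 neuronal marker genes looked up were edited in all 6 libraries, and their summed EPR was 0.239 to 0.300 in RPL10A-STAMP libraries and 0.183 to 0.212 in RPL22-STAMP libraries. Of 6 astrocyte markers, 4 were edited in all 6 libraries, with a summed EPR between 0.171 and 0.254 in RPL10A-STAMP libraries and between 0.103 and 0.226 in RPL22-STAMP libraries. None of the 6 microglial markers or the 5 markers of dividing cells was edited in all 6 libraries, and *Csf1r*, *Aif1*, *P2ry12*, *Mki67*, *Bub1* and *Cdk1* were listed at 0 throughout. The other markers of both lists had edits in some libraries. Summed EPR reached 0.0143 with RPL10A-STAMP and 0.0714 with RPL22-STAMP for microglia, and 0.0263 and 0 for dividing cells. Of 5 oligodendrocyte markers, 1 was edited in all 6 libraries, and *Mag* and *Mog* in none. The 5 together had a summed EPR of 0.00895 to 0.0886 in RPL10A-STAMP libraries and 0.0130 to 0.0618 in RPL22-STAMP libraries.

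The codons of the helix that names the group are part of the RNA that the deaminase acts on, and are printed for some of the genes. The 21 bases below are from the mouse genome GRCm38, read 5′ to 3′ on the coding strand, with every cytidine in capitals since only cytidines can be edited. EPR is given per gene, so which of these cytidines were edited is not known from it.
Cdk17: CCCtgtaCagCtataagagaa
Cdk16: CCCtgtaCtgCtatCCgggaa
Cdk18: CCCtgCaCtgCtattCgagag
Cdk14: CCtttCaCagCCatCagggaa
Cdk5: CCaagttCagCCCtCCgggag

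They lie in coding exons at chr10:93225029-93225049 on the plus strand for *Cdk17*, chrX:20694725-20694745 on the plus strand for *Cdk16* and chr1:132119101-132119121 on the minus strand for *Cdk18*. Those of *Cdk14* are at chr5:5195279-5195299 and those of *Cdk5* at chr5:24422689-24422709, both on the minus strand. The *Cdk17* codons hold 5 cytidines and those of *Cdk16*, *Cdk18* and *Cdk14* hold 7 each. From *Cdk17*, *Cdk16* differed at 4 of the 21 bases, *Cdk18* at 5, *Cdk14* at 6 and *Cdk5* at 9. Of the genes not printed, *Cdk9* differed at 7, and codons 746 to 752 of *Cdk13*, a paralog of *Cdk12*, at 5. The counts thus did not follow the grouping of the genes throughout. Over the aligned bases of the coding sequences, gaps left out, *Cdk17* was 70.0% identical to *Cdk16*, 71.9% to *Cdk18* and 65.8% to *Cdk14*. It was 70.9% identical to *Cdk5*, over 855 aligned bases beside 1465 for *Cdk16*, so this measure did not place *Cdk5* further away. No run of 50 bases was shared by any pair of the 10 genes, so reads of that length or longer can tell the relatives from each other.

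*Cdk17* (ENSMUSG00000020015), a PCTAIRE kinase of terminally differentiated cells, lies on chromosome 10 from 93160875 to 93267071 on the plus strand. Its EPR was 0.363, 0.425 and 0.404 in RPL10A-STAMP replicates 1, 2 and 3, or 0.398 ± 0.0314 (SD, n = 3). With RPL22-STAMP it was 0.0454, 0.0159 and 0.0122, or 0.0245 ± 0.0182 (SD, n = 3). The mean was 16.2 times as high with RPL10A-STAMP, and the groups did not overlap. Values are given in the order of the replicates throughout. Among all edited genes of a library, *Cdk17* ranked 122nd, 112th and 121st from the top with RPL10A-STAMP. With RPL22-STAMP it ranked 421st, 4225th and 4610th, so replicate 1 stood near the top of its library and the others near the middle. The RPL22-STAMP libraries of *Cdk17* differed by 3.72 times between the highest and the lowest, against a median of 1.87 times over the 8046 genes with edits in every library, and 1117 of those genes spread at least as widely. The RPL10A-STAMP libraries differed by 1.17 times.

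**Figure D1:**
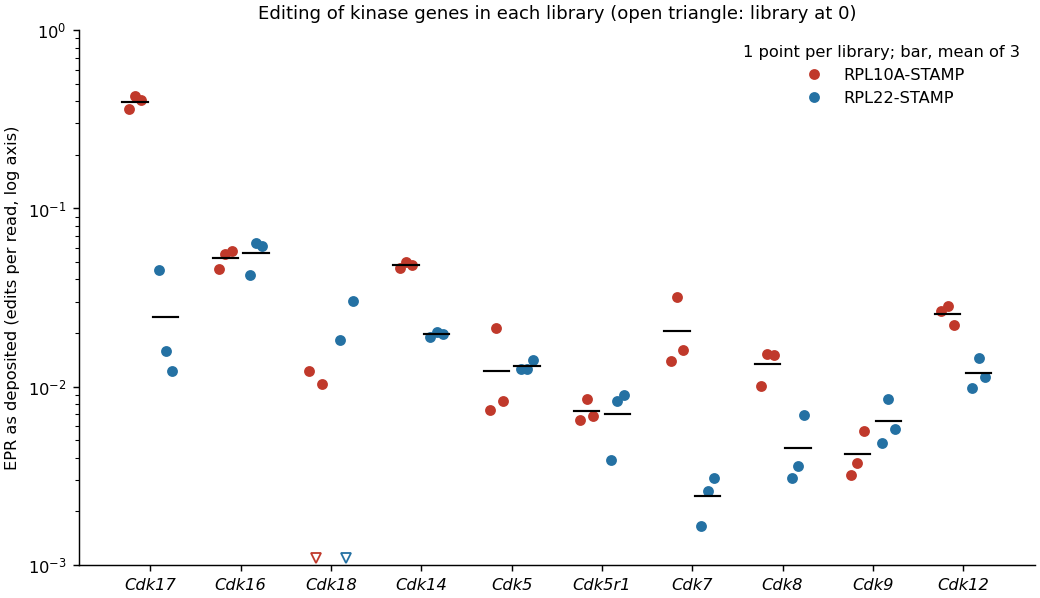
EPR as deposited (edits per read, log axis) of the 10 genes, with 1 point per library, red for RPL10A-STAMP and blue for RPL22-STAMP, a bar at the mean of 3 libraries and an open triangle at the bottom for a library at 0. *Cdk17* is at 0.363 to 0.425 with RPL10A-STAMP and 0.0122 to 0.0454 with RPL22-STAMP, and the red points also lie above the blue ones for *Cdk14*, *Cdk7*, *Cdk8* and *Cdk12*.

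Differences between the constructs were fitted with limma for the 8046 genes, on the log2 of EPR plus 0.01, with libraries first scaled to a common median. Positive log2 fold changes are higher with RPL10A-STAMP, and the added 0.01 makes those of weakly edited genes too small. The log2 fold change of *Cdk17* was 3.34 (standard error 0.42), the largest positive value among these genes. The gene with the next largest was *Slf1*, at 3.29. Without RPL22-STAMP replicate 1 the log2 fold change of *Cdk17* was 3.90, and leaving out any other library gave 3.06 to 3.39. In the opposite orientation, exons of *Elk3* overlap 316 of the 6102 bases in all annotated exons of *Cdk17*, or 5.18%. *Elk3* had an EPR of 0.0274, 0.0213 and 0.0138 in the RPL10A-STAMP libraries and 0, 0.0119 and 0.00893 in the RPL22-STAMP libraries, below that of *Cdk17* in every library. Of the 3615 bases of the *Cdk17* transcript, 116 (3.21%) occur in exact runs of at least 50 bases elsewhere, on chromosome 3.

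Of the 8046 genes, 1149 had an adjusted p under 0.05, or 14.3%, with 8.51% of genes in the RPL10A-STAMP direction and 5.77% in the opposite one. The count was 692, 447 and 369 without RPL10A-STAMP replicates 1, 2 and 3. It was 865, 738 and 595 without RPL22-STAMP replicates 1, 2 and 3. Apart from *Cdk17*, 8 of the kinase genes could be tested, and 2 of them, *Cdk7* and *Cdk14*, were called, both higher with RPL10A-STAMP. The median log2 fold change of the 8 genes was 0.18, beside -0.01 over all genes tested, and 4 of the 8 were positive. In EPR as deposited, the lowest RPL10A-STAMP library exceeded the highest RPL22-STAMP library for 4 of the 8, *Cdk14*, *Cdk7*, *Cdk8* and *Cdk12*, beside 28.2% of all genes tested. For 0 of the 8 did all RPL10A-STAMP libraries fall below as deposited, beside 6.21% of all genes. In the scaled values used for the fit they did so for *Cdk16* and *Cdk9*, and the share of all genes on that scale is not given here. For the 4 genes that lay above, the exact permutation test on EPR as deposited gives p = 0.10 (two-sided), the smallest that 3 libraries against 3 allow.

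**Figure D2:**
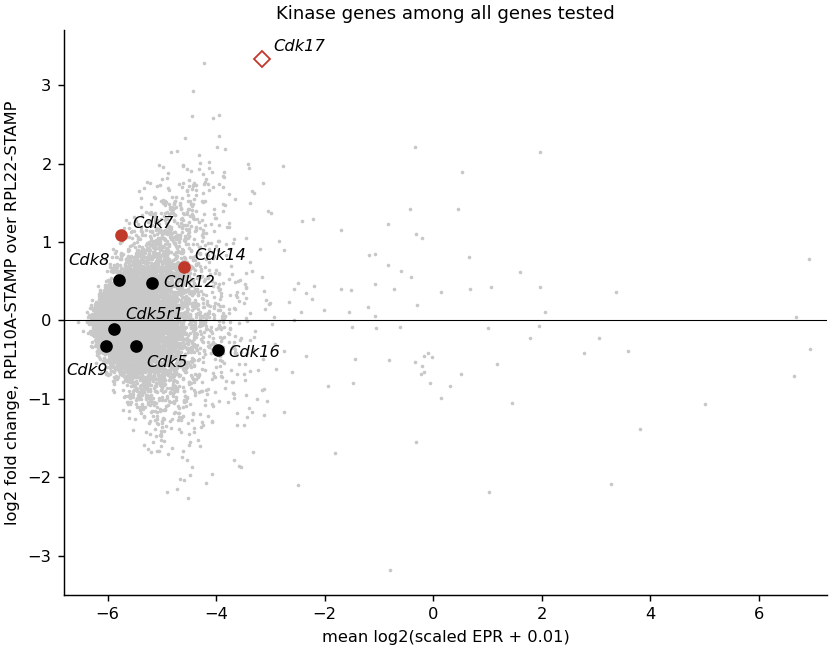
Log2 fold change (positive, higher with RPL10A-STAMP) against the mean log2(scaled EPR + 0.01) for the 8046 genes tested (grey), with the kinase genes labelled, in red where the adjusted p of limma was under 0.05 and as an open diamond for *Cdk17*, which was not tested. *Cdk17* has the largest positive value, 3.34, and *Cdk16*, at -0.38, has the next highest mean among the labelled genes.

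Of the other PCTAIRE genes, *Cdk16* overlapped between the constructs in EPR as deposited and *Cdk18* was too often at 0 to be tested. *Cdk16* (ENSMUSG00000031065, chromosome X from 20687954 to 20699880), a PCTAIRE kinase that partners with cyclin Y, had an EPR of 0.0459, 0.0552 and 0.0575 in the RPL10A-STAMP libraries and 0.0423, 0.0643 and 0.0612 in the RPL22-STAMP libraries. As deposited the groups overlapped, with means of 0.0529 ± 0.00616 and 0.0559 ± 0.0119 (SD, n = 3 each). After scaling every RPL10A-STAMP library lay below every RPL22-STAMP library. The fit gave a log2 fold change of -0.38 (standard error 0.13, limma adjusted p = 0.0999), with a 95% interval from -0.69 to -0.07 before adjustment. It was -0.51 with quantile normalization (limma adjusted p = 0.0450), -0.06 without scaling (limma adjusted p = 0.908) and -0.10 with the GC trend removed (limma adjusted p = 0.683). *Cdk16* stood at the 91.8th to 93.1st percentile of edited genes in the RPL10A-STAMP libraries and at the 95.4th to 96.1st in the RPL22-STAMP libraries, so it was among the more highly edited genes with both constructs.

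*Cdk18* (ENSMUSG00000026437, chromosome 1 from 132112237 to 132139684), the remaining PCTAIRE kinase, had an EPR of 0, 0.0122 and 0.0104 in the RPL10A-STAMP libraries and 0.0182, 0.0304 and 0 in the RPL22-STAMP libraries. It was listed at 0 in 1 library of each group and was not among the genes tested. In the libraries where it was edited it reached the 41.1st and 31.9th percentile with RPL10A-STAMP and the 81.4th and 86.5th with RPL22-STAMP. *Cdk18* overlaps another gene on 1.81% of its exon bases.

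*Cdk14* (ENSMUSG00000028926, chromosome 5 from 4803391 to 5420312), whose product binds cyclin Y at the membrane, had close replicates in both groups as deposited. Its EPR was 0.0465, 0.0498 and 0.0480 in the RPL10A-STAMP libraries and 0.0189, 0.0204 and 0.0197 in the RPL22-STAMP libraries. As deposited, the groups were far apart compared with their spread. Their means were 0.0481 ± 0.00167 and 0.0197 ± 0.000734 (SD, n = 3 each), with a ratio of 2.45. Relative to the other genes of each library the replicates were less close. *Cdk14* stood at the 88.8th to 93.2nd percentile of edited genes with RPL10A-STAMP and at the 73.4th to 82.7th with RPL22-STAMP. The log2 fold change was 0.68 (standard error 0.15, limma adjusted p = 0.0279). The call did not hold without RPL10A-STAMP replicate 1, 2 or 3 (limma adjusted p = 0.0773, 0.0800 and 0.0659) or without RPL22-STAMP replicate 2 or 3 (limma adjusted p = 0.0739 and 0.0715), and the log2 fold change stayed between 0.60 and 0.77. With the dependence of each library on GC content removed it was 0.48 (limma adjusted p = 0.102).

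*Cdk15*, the closest paralog of *Cdk14*, was edited in a single library, RPL22-STAMP replicate 1, at 0.0108. The cyclin Y gene *Ccny* had an EPR of 0.0381, 0.0430 and 0.0491 in the RPL10A-STAMP libraries and 0.0153, 0.0225 and 0.0287 in the RPL22-STAMP libraries. The groups of *Ccny* did not overlap, but its log2 fold change of 0.46 did not pass the test (standard error 0.16, limma adjusted p = 0.102). Its paralog *Ccnyl1* varied from 0.00420 to 0.0488 between the RPL22-STAMP libraries and had a log2 fold change of -0.32 (standard error 0.47, limma adjusted p = 0.682).

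*Cdk5* (ENSMUSG00000028969, chromosome 5 from 24418241 to 24423530) and *Cdk5r1* (ENSMUSG00000048895, chromosome 11 from 80477023 to 80481184) encode the subunits of the main neuronal kinase of the family. *Cdk5* had an EPR of 0.00740, 0.0212 and 0.00833 in the RPL10A-STAMP libraries and 0.0125, 0.0126 and 0.0142 in the RPL22-STAMP libraries. Replicate 2 of RPL10A-STAMP lay above all the other libraries and the remaining RPL10A-STAMP libraries lay below them. Its log2 fold change was -0.32 (standard error 0.22, limma adjusted p = 0.355), with a 95% interval from -0.84 to 0.19. Leaving out RPL10A-STAMP replicate 2 gave -0.54 (limma adjusted p = 0.109), and leaving out replicate 3 of that group gave -0.17 (limma adjusted p = 0.681).

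*Cdk5r1* had an EPR of 0.00649, 0.00855 and 0.00681 in the RPL10A-STAMP libraries and 0.00390, 0.00832 and 0.00899 in the RPL22-STAMP libraries. The range of the RPL22-STAMP libraries enclosed all RPL10A-STAMP libraries. The log2 fold change was -0.12 (standard error 0.14, limma adjusted p = 0.608), with a 95% interval from -0.44 to 0.21. Its sign turned without scaling and when the GC trend was removed. The other activator gene, *Cdk5r2*, had a log2 fold change of -0.22 (standard error 0.13, limma adjusted p = 0.297).

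*Cdk7* (ENSMUSG00000069089, chromosome 13 from 100702631 to 100730939), the kinase subunit of the complex that activates other cyclin-dependent kinases and of the transcription factor TFIIH, had the next largest log2 fold change of the 10 genes after *Cdk17*. Its EPR was 0.0139, 0.0320 and 0.0160 in the RPL10A-STAMP libraries and 0.00166, 0.00261 and 0.00307 in the RPL22-STAMP libraries. The groups did not overlap, with means of 0.0206 ± 0.00992 and 0.00245 ± 0.000722 (SD, n = 3 each) and a ratio of 8.44. *Cdk7* stood at the 51.6th to 80.3rd percentile of edited genes in the RPL10A-STAMP libraries and at the 1.60th to 5.83rd in the RPL22-STAMP libraries. Its log2 fold change was 1.09 (standard error 0.20, limma adjusted p = 0.0151) with the pseudocount and 2.63 (limma adjusted p = 0.00958) without it. The call held without each library in turn (limma adjusted p from 0.0237 to 0.0453).

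*Cdk8* (ENSMUSG00000029635, chromosome 5 from 146231230 to 146302874), the kinase of the Mediator complex, had an EPR of 0.0101, 0.0152 and 0.0151 in the RPL10A-STAMP libraries and 0.00306, 0.00361 and 0.00694 in the RPL22-STAMP libraries. The groups did not overlap, and the mean was 2.97 times as high with RPL10A-STAMP. The log2 fold change was 0.52 (standard error 0.14, limma adjusted p = 0.0552), which narrowly missed the threshold and passed it without RPL22-STAMP replicate 3 (0.65, limma adjusted p = 0.0434). The values of *Cdk8* are uncertain, since 1771 of its 2973 transcript bases, or 59.6%, occur in exact runs of at least 50 bases on chromosomes 11 and 14, and the authors' alignment kept reads that matched several locations.

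*Cdk9* (ENSMUSG00000009555, chromosome 2 from 32705784 to 32713076), the kinase that releases paused RNA polymerase, was the least edited of the 10 genes with RPL10A-STAMP. Its EPR was 0.00320, 0.00375 and 0.00563 in the RPL10A-STAMP libraries and 0.00482, 0.00855 and 0.00578 in the RPL22-STAMP libraries. As deposited the groups overlapped, and after scaling every RPL10A-STAMP library lay below every RPL22-STAMP library. The log2 fold change was -0.33 (standard error 0.11, limma adjusted p = 0.0875). It was -0.99 without the pseudocount and -0.06 with the GC trend removed (limma adjusted p = 0.102 and 0.797). Of the *Cdk9* transcript 49.5% occurs in exact runs of at least 50 bases on chromosome 4, so its values are uncertain too.

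*Cdk12* (ENSMUSG00000003119, chromosome 11 from 98203059 to 98278504), a kinase of elongating RNA polymerase, had an EPR of 0.0265, 0.0285 and 0.0221 in the RPL10A-STAMP libraries and 0.00980, 0.0145 and 0.0113 in the RPL22-STAMP libraries. The groups did not overlap and the ratio of the means was 2.16. The fit gave a log2 fold change of 0.47 (standard error 0.16, limma adjusted p = 0.0925). Exact runs on chromosome 2 cover 5.21% of its transcript.

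**Figure D3:**
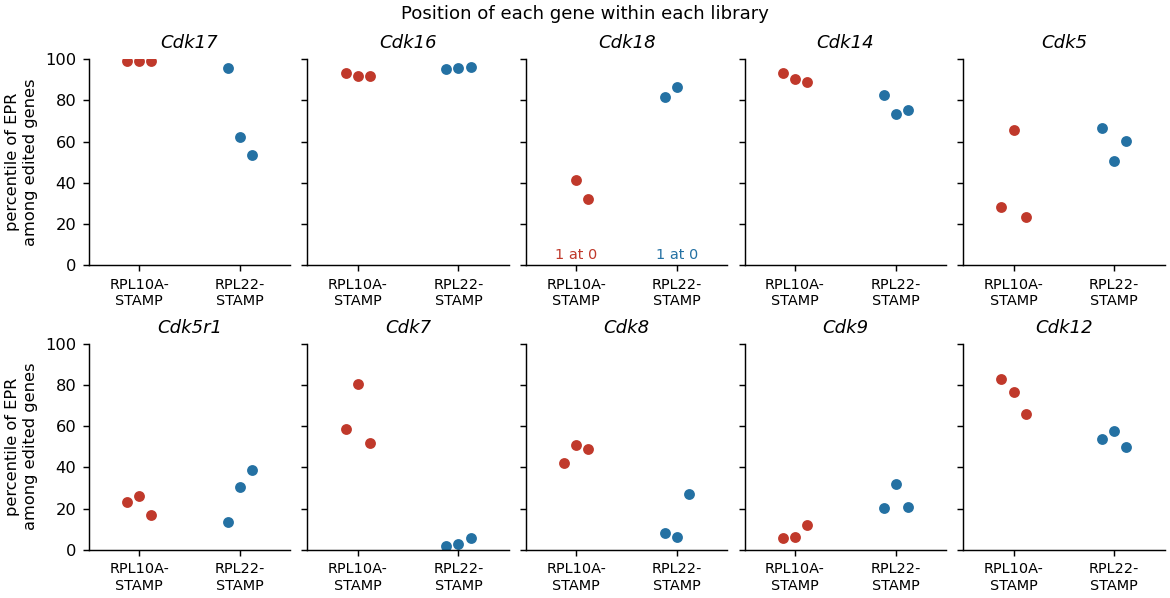
Percentile of each gene's EPR among the edited genes of the same library, with 1 point per library, red for RPL10A-STAMP and blue for RPL22-STAMP, and the number of libraries at 0 written at the bottom. The percentile needs no scaling between libraries. *Cdk17* is at 98.8 to 98.9 with RPL10A-STAMP and 53.4 to 95.8 with RPL22-STAMP, and *Cdk7* falls below 6 in the RPL22-STAMP libraries.

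By mean EPR, the order with RPL10A-STAMP was *Cdk17*, *Cdk16*, *Cdk14*, *Cdk12*, *Cdk7*, *Cdk8*, *Cdk5*, *Cdk18*, *Cdk5r1* and *Cdk9*. Neighbours in this order overlapped in their libraries, except *Cdk17* from *Cdk16*, *Cdk14* from *Cdk12*, and *Cdk5r1* from *Cdk9*. With RPL22-STAMP the order was *Cdk16*, *Cdk17*, *Cdk14*, *Cdk18*, *Cdk5*, *Cdk12*, *Cdk5r1*, *Cdk9*, *Cdk8* and *Cdk7*, and of the neighbours only *Cdk12* and *Cdk5r1* did not overlap. The first place of *Cdk17* with RPL10A-STAMP follows from the way it was chosen. With RPL22-STAMP it overlapped with *Cdk16* and *Cdk14*. The overlap with *Cdk16* came from replicate 1, where *Cdk17* was at 0.0454 and *Cdk16* at 0.0423. In RPL22-STAMP replicates 2 and 3 *Cdk17* was lower, at 0.0159 and 0.0122 against 0.0643 and 0.0612.

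The closest paralogs of *Cdk8* and *Cdk12* were both higher with RPL10A-STAMP. *Cdk19*, the paralog of *Cdk8* in Mediator and 76.2% identical to it in coding sequence, had an EPR of 0.139, 0.135 and 0.162 in the RPL10A-STAMP libraries and 0.0319, 0.0329 and 0.0311 in the RPL22-STAMP libraries. Its log2 fold change was 1.55 (standard error 0.17, limma adjusted p = 0.00452). *Cdk13*, the paralog of *Cdk12* and 67.5% identical to it, had an EPR of 0.0511, 0.0824 and 0.0793 in the RPL10A-STAMP libraries and 0.0112, 0.0137 and 0.00544 in the RPL22-STAMP libraries. Its log2 fold change was 1.73 (standard error 0.20, limma adjusted p = 0.00472). Both kept their calls under all 18 alternative settings. Whether they differed from *Cdk8* and *Cdk12* was not tested.

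Of the 16 other kinases of the family that were looked up, 15 were listed and 7 could be tested, and *Cdk13* and *Cdk19* were the only ones called, both higher with RPL10A-STAMP, as were 8.51% of all genes tested. The median log2 fold change of the 7 was 0.44. *Cdk1*, *Cdk2* and *Cdk20* were listed at 0 in all 6 libraries, the first 2 of which drive the cell cycle of dividing cells.

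Of 24 cyclins and other partners, 17 could be tested and 2 were called, both higher with RPL10A-STAMP (8.51% of all genes tested), with a median log2 fold change of -0.06. *Med13*, which tethers the kinase module to Mediator, had a log2 fold change of 0.98 (standard error 0.18, limma adjusted p = 0.0166), and the call did not hold without RPL10A-STAMP replicate 2 or 3 (limma adjusted p = 0.0600 and 0.0675). *Ccnh*, the cyclin of Cdk7, had an EPR of 0.0300, 0.0465 and 0.0416 in the RPL10A-STAMP libraries and 0.0152, 0.0181 and 0.0156 in the RPL22-STAMP libraries. Its log2 fold change was 0.62 (standard error 0.14, limma adjusted p = 0.0277), and the call held only when the library left out was RPL22-STAMP replicate 1, with limma adjusted p of 0.0581 or more otherwise.

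Of 8 regulators of Cdk5, 4 could be tested and 0 were called by limma (also 0 at an unadjusted p under 0.05), with a median log2 fold change of 0.23. *Cdk5rap2*, a centrosomal protein, had a mean EPR of 0.285 with RPL10A-STAMP and 0.203 with RPL22-STAMP and overlapped between the groups, and it was named after its values were seen. Of 20 substrates of Cdk5, all could be tested, none was called higher with RPL10A-STAMP by limma (3 at an unadjusted p under 0.05) and 5 were called higher with RPL22-STAMP (5.77% of all genes tested), with a median log2 fold change of -0.19.

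*Syn1*, a synaptic vesicle protein, had an EPR of 0.0176, 0.0208 and 0.0206 in the RPL10A-STAMP libraries and 0.0286, 0.0374 and 0.0342 in the RPL22-STAMP libraries. Its log2 fold change was -0.82 (standard error 0.12, limma adjusted p = 0.00814), and the call held without each library in turn but not without scaling (-0.54, limma adjusted p = 0.0967). *Ndel1*, a dynein regulator, was at -0.75 (standard error 0.15, limma adjusted p = 0.0230), and *Stx1a*, of vesicle fusion, was at -0.64 (standard error 0.15, limma adjusted p = 0.0368). *Mapt*, encoding tau, was at -0.49 (limma adjusted p = 0.0417) and was named after its value was seen. The calls of *Stx1a* and *Mapt* held under none of the 6 leave-one-out fits (limma adjusted p of 0.0596 or more), and that of *Ndel1* held only without RPL22-STAMP replicate 1 (limma adjusted p of 0.0556 or more otherwise). None of these 3 calls held without scaling (limma adjusted p of 0.107 or more). With the GC trend removed, 3 of all the related genes looked up were called, among them *Cdk13* and *Cdk19*. With the replicate block added to that, only those 2 were called. No substrate call held there, that of *Syn1* included.

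Of 8 inhibitors of cyclin-dependent kinases, 3 could be tested and 4 were listed at 0 throughout. *Cdkn1a*, which stops the cell cycle, had a log2 fold change of -0.80 (standard error 0.21, limma adjusted p = 0.0444), and the call held only when the library left out was RPL22-STAMP replicate 2, with limma adjusted p of 0.0655 or more otherwise. Over all 76 related genes, 51 could be tested, 10 were called (14.3% of all genes tested), of which 4 were higher with RPL10A-STAMP (8.51%) and the other 6 lower (5.77%), and the median log2 fold change was -0.09.

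**Figure D4:**
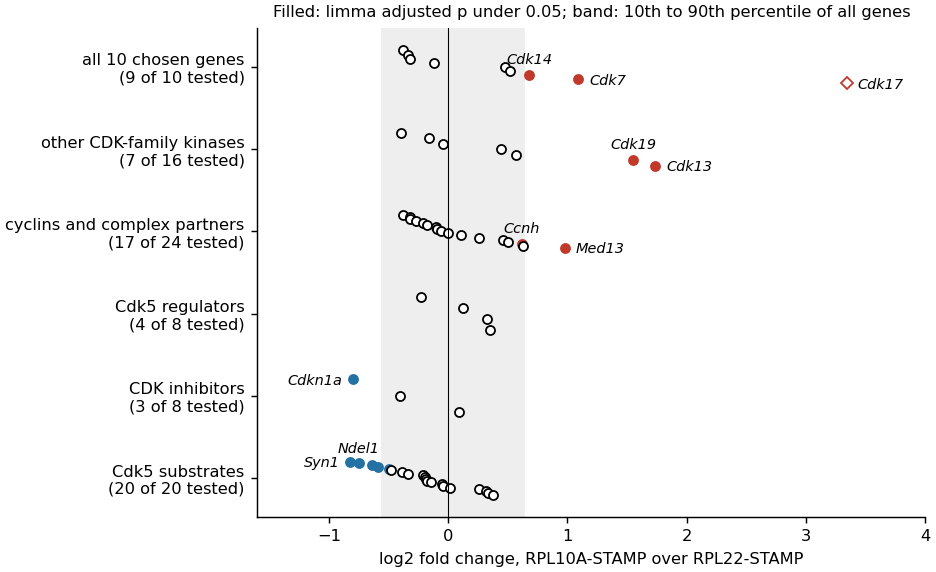
Log2 fold change (positive, higher with RPL10A-STAMP) for the kinase genes and the related lists, with 1 point per gene tested, filled where the adjusted p of limma was under 0.05 (red for higher and blue for lower with RPL10A-STAMP), an open diamond for *Cdk17*, which was not tested, and a grey band from the 10th to the 90th percentile of all genes (-0.55 to 0.64). The called kinases lie to the right, and the 5 called substrates of Cdk5 to the left.

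The genes also differed in base composition. The *Cdk17* transcript has a GC content of 44.6%, and those of *Cdk14* and *Cdk7* have 44.4% and 43.9%, near the 25th percentile of the genes tested (44.5%). *Cdk8* and *Cdk12*, at 48.6% and 48.5%, were near the median of 48.9%. *Cdk16*, *Cdk18*, *Cdk5*, *Cdk5r1* and *Cdk9* had between 53.4% and 56.4%, around or above the 75th percentile (53.6%). The 5 genes whose RPL10A-STAMP libraries all lay above, among them *Cdk17*, which was chosen by these values, had the lower GC contents of the 10. Of the paralogs called higher with RPL10A-STAMP, *Cdk19* had 45.8% and *Cdk13* had 50.7%, above the median. The log2 fold change of *Cdk13* was 1.73, and 1.82 with the GC trend removed. When the GC dependence was taken out of each library, the log2 fold change was 3.15 for *Cdk17*, 0.87 for *Cdk7* (limma adjusted p = 0.0395) and 0.48 for *Cdk14* (limma adjusted p = 0.102). *Cdk8* and *Cdk12*, near the median GC content, were then at 0.52 and 0.46. Of the genes with high GC content, *Cdk16* was at -0.10, *Cdk9* at -0.06 and *Cdk5* at -0.12, all nearer 0 than before removal, and *Cdk5r1* turned from -0.12 to 0.11. The deaminase prefers a cytidine that follows A or U, and 49.9% of the cytidines of *Cdk17* do so, against a median of 47.2%. The share was 52.2% in *Cdk14*, 49.6% in *Cdk7* and 49.3% in *Cdk12*. In *Cdk8*, whose RPL10A-STAMP libraries also all lay above, it was 45.3%, below the median. It was 38.7% to 43.4% in the other genes of the 10, and 48.7% in *Cdk19* and 40.6% in *Cdk13*. The part of base composition in the differences was not tested beyond this removal.

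**Figure D5:**
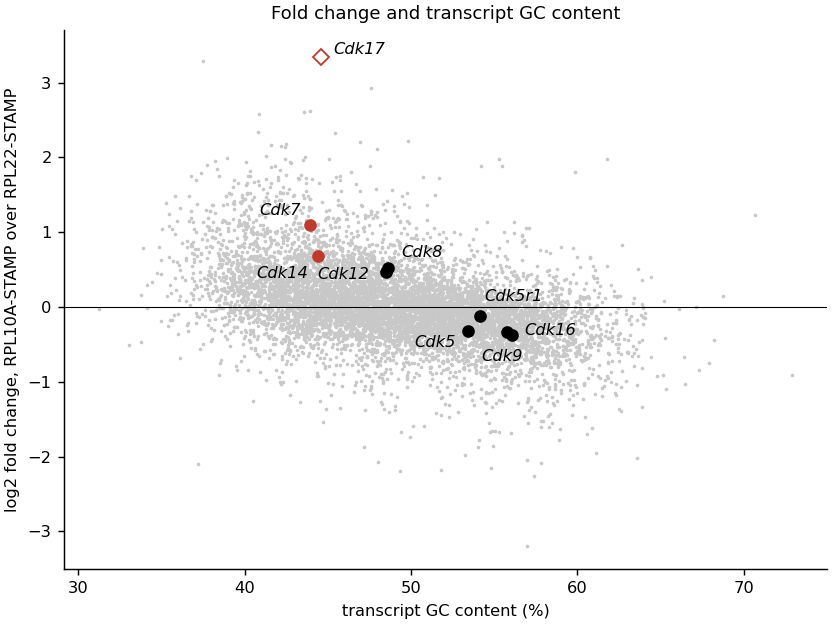
Log2 fold change (positive, higher with RPL10A-STAMP) against the GC content of the transcript (%), for all genes tested (grey) and the kinase genes (labelled, red where the adjusted p of limma was under 0.05, open diamond for *Cdk17*, which was not tested). The labelled genes from 43.9% to 48.6% GC are above 0 and those from 53.4% to 56.1% are below 0.

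The genes whose pattern over the 6 libraries was most like that of *Cdk17* were found by the root mean square difference of log2(scaled EPR + 0.01), centred on each gene's mean. They were *Slf1* (0.533), *Zbtb11* (0.569), *Pde3b* (0.570), *Nup107* (0.616) and *Krit1* (0.680). *Slf1* had an EPR of 0.111, 0.272 and 0.188 in the RPL10A-STAMP libraries and 0.00661, 0.00844 and 0.00380 in the RPL22-STAMP libraries. *Krit1* had 0.0886, 0.142 and 0.136 in the RPL10A-STAMP libraries and 0.0315, 0.0126 and 0.00808 in the RPL22-STAMP libraries. As in *Cdk17*, RPL22-STAMP replicate 1 was the highest of that group in *Krit1*, *Zbtb11* and *Pde3b*, but not in *Slf1* or *Nup107*. None of the 5 was a kinase gene of the family, and the likeness was not tested.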

How the data were processed

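Bulk RNA-seq gave EPR in 6 libraries of cultured mouse neurons. The authors used cutadapt for trimming, STAR for alignment to mm10, SAILOR for edits and featureCounts for reads, and deposited the ratio of edits to reads per gene, without normalization between libraries. The gene annotation is not given in the sources used here, and 30934 of 31053 identifiers matched GENCODE mouse release 21 (GRCm38).

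Libraries were scaled so that their medians over the 8046 genes with edits in all 6 became equal to the geometric mean of those medians. Log2(EPR + 0.01) was then tested by limma 3.58.1 (R 4.3.3, eBayes with trend), with Benjamini-Hochberg adjustment over all genes and a threshold of 0.05. The genes and related lists were chosen with earlier results of these data known. Genes named beside the 10 were up to 4 called genes per list with the largest fold change, the closest paralogs, and the 5 genes most like *Cdk17*. One gene that this rule would name is not reported here. Features were those of the transcript whose coding sequence was longest, the helix codons from the GENCODE transcripts, and exact copies from BLAST 2.17.0. Python 3.11.15, pandas 2.3.3, scipy 1.17.1, Biopython 1.88 and matplotlib 3.10.9 were used. Alternatives covered the pseudocount, scaling, gene filter, variance trend, replicate block, GC and length trends, and each library left out. Depth per gene is unknown, so no counting error is given.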

Additional observations from a re-analysis of the deposited data

How the results depend on the processing

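Reads behind each EPR are unknown, and with 3 libraries per construct most calls near the threshold moved across it. The log2 fold change of *Cdk17* was 2.35 with a pseudocount of 0.05 and 3.06 to 3.90 without single libraries. Without scaling, the median log2 fold change of all genes moved from -0.01 to 0.18 and the RPL10A-STAMP direction held 88.1% of calls, beside 59.6% with scaling. *Cdk8* (0.69) and *Cdk12* (0.71) were then called, 4 kinase genes apart from *Cdk17* and 6 related genes were called, and *Cdk5r1* turned to 0.030. *Cdk5r1* was also positive, at 0.11, after removal of the GC trend, with and without the replicate block. Quantile normalization gave *Cdk14* 0.58, no longer called, and *Cdk16* -0.51, called. Removal of the length trend gave *Cdk8* 0.54, called.

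Testing the genes edited in at least 3 libraries called 754 genes, 1 kinase gene and 5 related genes, and testing those edited in at least 1 called 569, 0 and 4. *Cdk14* (0.68) was lost under both and *Cdk7* (1.09) under the latter. Removing the GC trend called 663, 1 and 3, with *Cdk14* at 0.48. Leaving out single libraries called 369 to 865 genes, 1 to 2 kinase genes and 3 to 7 related genes, with *Cdk14* at 0.60 to 0.77 and *Cdk8* at 0.44 to 0.65. *Cdk5* and *Cdk9* were uncalled under all 18 alternatives, with log2 fold changes from -0.65 to -0.10 and from -0.99 to -0.06.

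Deviations of same-numbered libraries correlated at 0.044, 0.046 and -0.0055 for replicates 1, 2 and 3. Pairs of unlike number were at -0.049 to 0.0041, so replicates 1 and 2 deviated together weakly and replicate 3 did not. The numbers were not taken to pair the libraries in the main fit, and the replicate block was an alternative. With the replicate block, 603 genes, 1 kinase gene and 4 related genes were called, with *Cdk14* at 0.68 (limma adjusted p = 0.0551). With the replicate block and the GC trend removed, 227, 0 and 2 were called, with *Cdk14* at 0.48 and *Cdk7* at 0.87, neither called.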
